A study of Mus musculus with 24 samples.

Results

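The stress response and chaperone genes are 36 genes in 3 programs of 12 genes each: the integrated stress response, the unfolded protein response of the endoplasmic reticulum, and the heat shock chaperones of the cytosol, nucleus and mitochondria. They were listed by name and known function, not by a threshold on any measured value, and the question put to them was whether their level in the mouse frontal cortex differed with progranulin dose, with a human TDP-43 transgene, or with both. All 36 were among the 18239 genes with enough reads to be tested, of 52352 genes to which the transcripts of the files belong.

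Bulk RNA sequencing of poly-A RNA was done on 24 mice, 6 of each of 4 genotypes, with 3 females and 3 males in each. Controls carried both working copies of Grn, the progranulin gene, and no transgene (Grn+/+:hTDP-). TDP mice carried both copies and the human TDP-43 transgene (Grn+/+:hTDP+), Grn+/- mice carried a single working copy and no transgene (Grn+/-:hTDP-), and mice with both changes carried a single copy and the transgene (Grn+/-:hTDP+). The 4 genotypes were littermates of a cross between Grn+/- mice and hTDP mice, and the labels name no drug or other agent. Frontal cortex was dissected from frozen brains of saline-perfused mice. Ages were 9.44 to 10.79 months in controls, 9.44 to 10.07 months in TDP mice, 8.19 to 10.79 months in Grn+/- mice and 9.44 to 10.07 months in mice with both changes. The promoter that drives the transgene, the Grn allele and the strain background were, in the sources used here, not given, and loss of 1 copy leaves the other active in every cell.

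Libraries held 61445842 to 100859149 estimated reads. The labels fitted the measured genes: Grn stood at 34.7 to 60.5 CPM (counts scaled to library size) in Grn+/+ and 13.8 to 32.9 CPM in Grn+/- mice, and the human TARDBP transcript at 65.5 to 81.4 CPM with the transgene and 0 to 0.0308 CPM without it. The sex label matched Xist and Y-linked genes in 24 of 24 libraries. All 6 neuron markers (Snap25, Rbfox3, Slc17a7, Gad1, Syt1 and Camk2a) were present in every library, at a summed 9146 to 11260.5 CPM. The library of TDP mouse replicate 2 stood apart: at 97736984 reads it had 40188 transcripts with any read, where each of the other 23 had 65994 to 69846. Fitted changes that rest on it are therefore given with and without it. Transcript shares and most correlations are given with it only. In bulk tissue, fewer cells of a type and less RNA per cell cannot be told apart.

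The 3 programs answer different kinds of damage. In the integrated stress response, kinases that sense unfolded protein, amino acid shortage or other stress slow general translation while the transcription factor ATF4 is made and switches on genes for amino acid supply, redox balance and, if stress lasts, cell death. In the unfolded protein response, the sensors IRE1 (Ern1), PERK (Eif2ak3) and ATF6 in the membrane of the endoplasmic reticulum raise its chaperones and the machinery that removes misfolded proteins. In the heat shock response, the factor HSF1 raises cytosolic chaperones that refold proteins or keep aggregates in solution, a function much studied in diseases with TDP-43 deposits.

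The integrated stress response genes ran from intermediate levels down to a few reads. On the TPM scale, which corrects for transcript length and depth, Atf4, the central transcription factor, stood at 143 ± 11.4 TPM (mean ± SD over all 24 mice), and Asns, which makes asparagine, at 115 ± 8.95 TPM. The enzymes of serine synthesis, Psat1 and Phgdh, held 73.4 ± 6.27 TPM and 60.2 ± 7.18 TPM. Ddit3, the pro-apoptotic factor CHOP, held 54.5 ± 4.35 TPM, and Ddit4, an inhibitor of mTORC1 signalling, 38.0 ± 5.08 TPM. These 6 genes lay at an intermediate level in the cortex of all genotypes. Lower down came the transcription factor Atf5 at 20.5 ± 2.11 TPM, Ppp1r15a (GADD34, which restores translation) at 12.7 ± 2.74 TPM, Chac1, which degrades glutathione, at 12.4 ± 1.84 TPM, and Sesn2, a stress sensor for leucine and oxidants, at 10.1 ± 0.801 TPM. The 2 genes nearest the detection limit were the inducible factor Atf3, at 0.756 ± 0.318 TPM and 20 to 97 reads per library, and the pseudokinase Trib3, at 0.682 ± 0.189 TPM and 21 to 94 reads. Neighbours in this order such as Psat1 and Phgdh, or Atf3 and Trib3, lay within their spreads of each other.

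The unfolded protein response genes fell into abundant chaperones and scarcer sensors. Calr and Canx, the lectin chaperones calreticulin and calnexin, held 279 ± 16.7 TPM and 165 ± 7.56 TPM, Hsp90b1 (GRP94) 190.2 ± 8.54 TPM and Hspa5 (BiP, the main chaperone of the compartment) 177 ± 15.3 TPM. Xbp1, the target of IRE1 splicing, held 93.0 ± 6.74 TPM. The degradation genes followed: Sel1l, a scaffold of the ubiquitin ligase complex, at 68.5 ± 4.68 TPM, Herpud1 at 56.2 ± 5.29 TPM, the co-chaperone Dnajb9 at 34.0 ± 2.15 TPM and the mannosidase-like Edem1 at 7.05 ± 0.863 TPM. Of the 3 sensors, Atf6 held 29.5 ± 3.49 TPM, Eif2ak3 14.3 ± 1.23 TPM and Ern1 3.72 ± 0.4001 TPM. All sensors therefore lay below every one of the 4 chaperones.

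The heat shock list held the most abundant genes. Hspa8, the constitutive HSC70, ranked 47 among the 18239 genes tested at 1600.2 ± 94.7 TPM, and the cytosolic HSP90 genes Hsp90ab1 and Hsp90aa1 ranked 54 and 130 at 1481 ± 61.4 TPM and 826 ± 52.2 TPM. The co-chaperone Dnaja1 held 285 ± 18.6 TPM, the HSP110 gene Hsph1 178 ± 13.7 TPM, and the mitochondrial chaperonin pair Hspd1 and Hspe1 153 ± 6.43 TPM and 153 ± 8.27 TPM, which could not be separated by level. Dnajb1, an HSP40 co-chaperone, held 52.4 ± 6.06 TPM and the regulator Hsf1 31.7 ± 3.503 TPM. Lowest in the list were Hspa1b and Hspa1a, which encode nearly the same HSP70 protein, at 21.3 ± 5.01 TPM and 20.2 ± 2.38 TPM, and the co-chaperone Bag3 at 5.23 ± 0.723 TPM. Values for Hspa1a and Hspa1b are uncertain singly, because 65.4% and 68.0% of the 31-base stretches of their main transcripts occur in another gene, mostly in each other. The same holds for Hspa8 (77.2%), Phgdh (73.5%), Hsp90aa1 (70.8%), Hspd1 (55.8%), Hspe1 (48.1%) and Dnaja1 (33.0%), which share most of them with genes that carry only a provisional name or a pseudogene name.

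**Figure D1:**
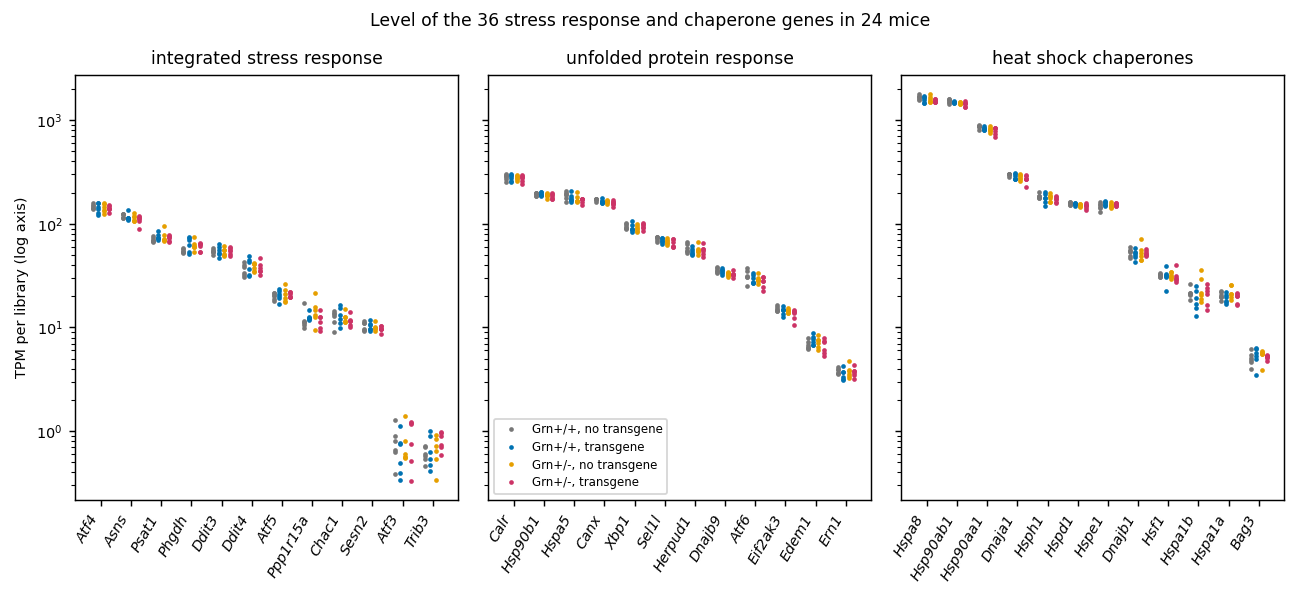
TPM (log axis) of each of the 36 genes in each of 24 libraries, by program and, in colour, by genotype; each point is 1 mouse. The genes span from 0.682 TPM (Trib3) to 1600.2 TPM (Hspa8) on average, and the ranges of the 4 genotypes overlap for every gene.

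The spread between mice was small for most members. The coefficient of variation of CPM across all 24 mice (SD as a percent of the mean) had a median of 7.52% over the heat shock genes, 7.61% over the unfolded protein response genes and 11.3% over the integrated stress response genes, beside 11.4% over all genes tested. The coefficient falls with level, and among genes above 10 CPM it was 8.16% over 32 members and 6.89% over all 9813 genes of that level. The steadiest member was Hspd1, at 2.43%, and the most variable among genes above 10 CPM was Hspa1b, at 23.8%, from 17.9 to 49.5 CPM. Atf3 varied most of all, at 42.2%, on few reads. Neither the transgene nor the Grn genotype kept the mice apart: for no member did the ranges of 2 genotypes, of all mice with and without the transgene, of both Grn genotypes or of the sexes fail to overlap.

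**Figure D2:**
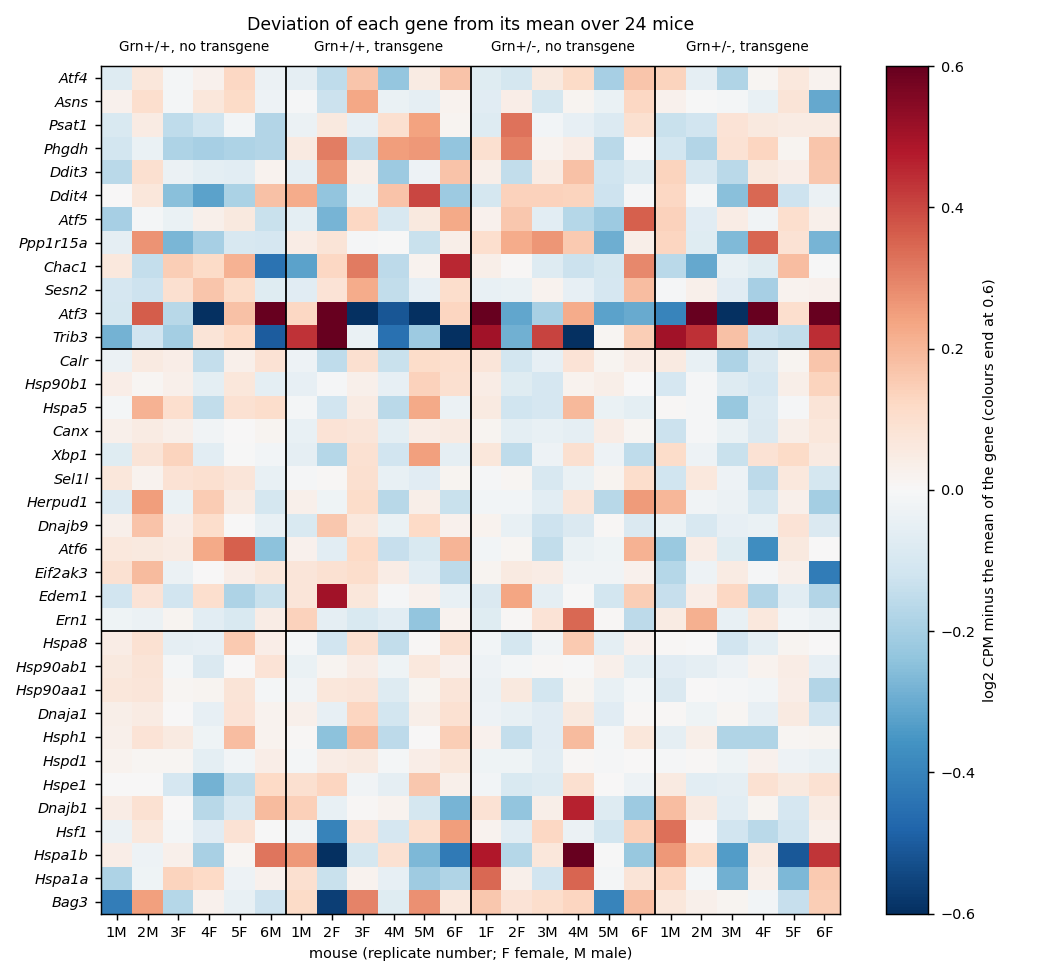
Deviation of log2 CPM from the mean of each gene (rows, by program) in each mouse (columns, by genotype); red is above and blue below the mean, and colours end at 0.6. Single mice stand out, such as the TDP mouse of replicate 2 for Edem1, Hspa1b and Bag3, and Phgdh alone has all 6 mice of a genotype, the controls, on 1 side of its mean.

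No member was called by edgeR's quasi-likelihood test in any of 9 comparisons, where called means a Benjamini-Hochberg adjusted p under 0.05 over all 18239 genes. Few genes of any kind were. In the transgene effect in Grn+/+ mice 0.0329% of all genes were called, in the transgene effect in Grn+/- mice 0.0219%, in the Grn effect without the transgene 0.011% and in the Grn effect with it 0.00548%. With both changes against neither 0.0768% were called, in the interaction 0%, in the average transgene effect 0.11%, in the average Grn effect 0.0219% and between males and females 0.0713%. At an unadjusted p under 0.05, 3 members stood against 7.83% of all genes in the transgene effect in Grn+/+ mice, 0 members against 2.38% in Grn+/- mice, 2 against 3.41% in the Grn effect without the transgene and 0 against 3.37% with it. The counts were 4 members against 9.4% with both changes against neither, 2 against 2.38% in the interaction, 1 against 7.86% in the average transgene effect, 2 against 4.93% in the average Grn effect and 6 against 5.99% for sex. The 6 of 36 for sex is the count that lies furthest above its share of all genes, and the list as such was not tested. DESeq2 and limma voom also called no member in the 8 genotype comparisons.

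The data were precise enough to bound the changes. In the average transgene effect, which sets all 12 mice with the transgene against the 12 without, the 95% interval of 33 of 36 members lay within 0.25 of 0 on the log2 scale, and in the average Grn effect that of 33. The wide intervals belonged to Atf3, Trib3 and Hspa1b in both. In the interaction (the transgene effect in Grn+/- mice minus that in Grn+/+ mice) 20 of 36 lay within 0.25, and for the other 16 a larger difference was not excluded by the interval. Ddit3, the factor most tied to stress-driven cell death, was held to -0.06 to 0.16 with the transgene and -0.10 to 0.11 with the Grn genotype. For Hspa5, the usual sign of endoplasmic reticulum stress, the intervals were -0.14 to 0.05 and -0.15 to 0.05, and for Atf4 -0.11 to 0.09 and -0.11 to 0.09.

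**Figure D3:**
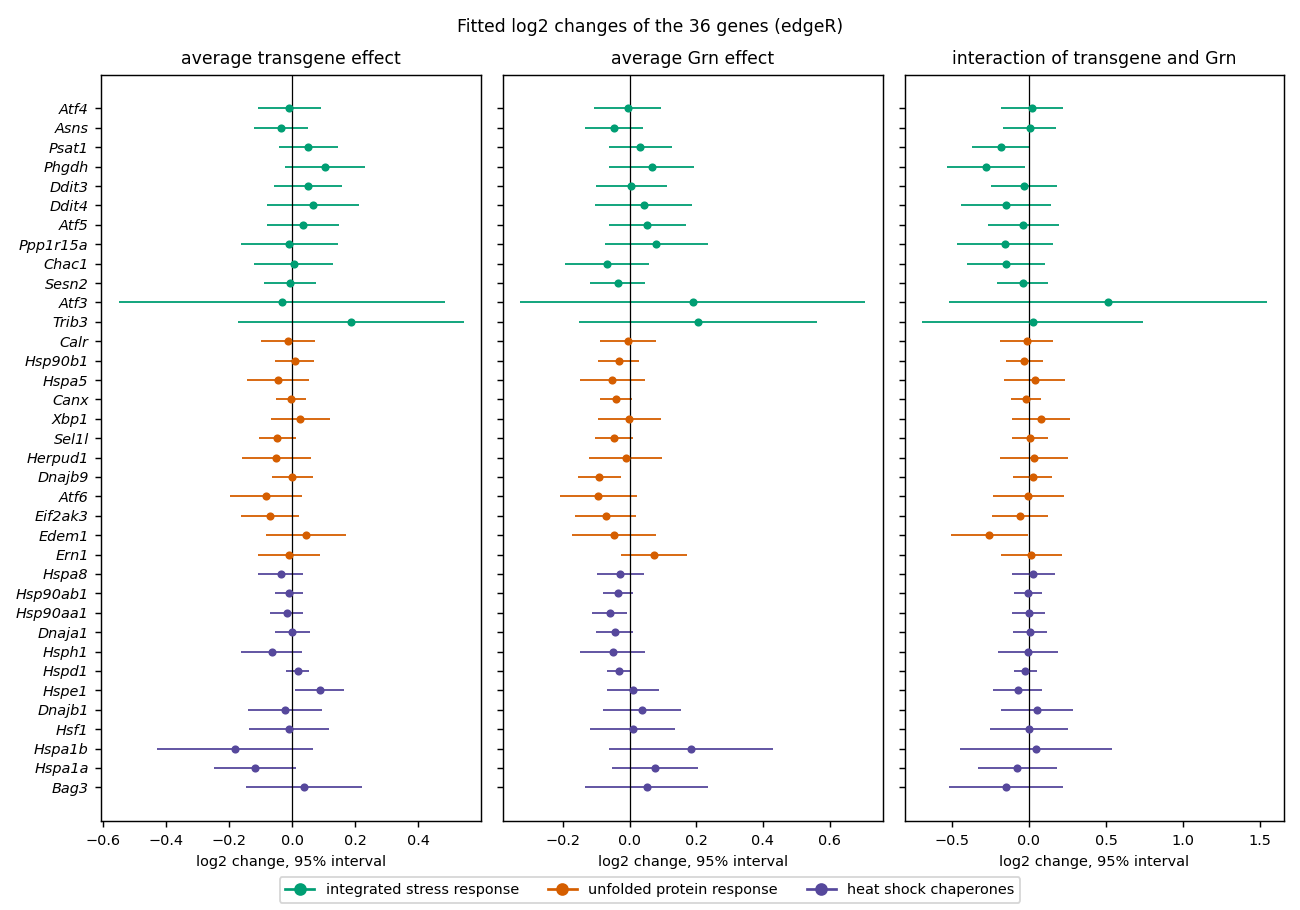
Fitted log2 change of each gene with its 95% interval (edgeR), in 3 panels for the transgene (average), Grn (average) and their interaction; the x axes differ. Intervals cross 0 for all genes but Hspe1 in the first panel, Dnajb9 and Hsp90aa1 in the second, and Phgdh and Edem1 in the third, none of which passed after adjustment.

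With the transgene, 7 of 12 integrated stress response genes lay above 0, with a median log2 change of 0.02. The unfolded protein response had 4 of 12 above 0 and a median of -0.01, and the heat shock genes 4 of 12 and -0.01. Over all genes 51.6% lay above 0 and the median was 0.003.

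Among heat shock genes the smallest p was that of Hspe1, the mitochondrial HSP10. Hspe1 ran from 32.5 to 42.9 (median 38.2) CPM in controls, 38.1 to 44.3 (median 41.3) in TDP mice, 37.2 to 42.3 (median 38.9) in Grn+/- mice and 37.8 to 42.2 (median 41.2) in mice with both changes. All genotypes overlapped, and the lowest 3 values of all were control females. The average transgene effect was 0.09 (SE 0.0381, edgeR adjusted p = 0.613), 0.08 without TDP mouse replicate 2 and 0.14 with age as a factor. Its partner in the chaperonin is Hspd1, the mitochondrial HSP60. Hspd1 stood at 138 to 147 (median 145) CPM in controls, 142 to 151 (median 148) in TDP mice, 137 to 144 (median 142) in Grn+/- mice and 139 to 146 (median 142) in mice with both changes. The Hspd1 ranges overlapped as well, and the log2 change was 0.02 (interval -0.02 to 0.05).

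The inducible HSP70 genes were lower with the transgene on average, within their spread. Hspa1a ran from 25.9 to 32.4 (median 29.5) CPM in controls, 25.5 to 31.6 (median 27.7) in TDP mice, 27.2 to 37.6 (median 30.7) in Grn+/- mice and 24.2 to 32.9 (median 29.7) in mice with both changes. Hspa1b ran from 25.1 to 35.8 (median 29.1) CPM in controls, 17.9 to 34.3 (median 25.2) in TDP mice, 24.5 to 49.5 (median 29.3) in Grn+/- mice and 20.1 to 38.6 (median 30.3) in mice with both changes. The lowest Hspa1b value was the TDP mouse of replicate 2, and the highest was a Grn+/- mouse. The average transgene effects were -0.12 (SE 0.0624, edgeR adjusted p = 0.666) for Hspa1a and -0.18 (SE 0.119, edgeR adjusted p = 0.723) for Hspa1b. Hspa1b gave -0.15 without TDP mouse replicate 2, -0.12 without Grn+/- mouse replicate 4 and -0.07 with age as a factor. In mice of 9.44 and 10.07 months alone, where a lone Grn+/- mouse was left, Hspa1a gave -0.05 and Hspa1b -0.06. The co-chaperones Dnaja1 and Bag3, which hand clients to HSP70 and release them from it, gave 0.001 and 0.04. Dnaja1 ran from 284 to 312 (median 300.3) CPM in controls, 273 to 322 (median 301) in TDP mice, 281 to 306 (median 287) in Grn+/- mice and 271 to 305 (median 292) in mice with both changes. Bag3 ran from 4.84 to 7.66 (median 6.09) CPM in controls, 4.36 to 7.94 (median 6.87) in TDP mice, 4.91 to 7.34 (median 7.01) in Grn+/- mice and 5.87 to 7.16 (median 6.56) in mice with both changes. Groups overlapped for both.

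In the integrated stress response, the genes of smallest p were Phgdh and Psat1, both of serine synthesis. Phgdh ran from 44.8 to 50.01 (median 45.4) CPM in controls, 43.7 to 63.7 (median 57.3) in TDP mice, 46.0 to 63.6 (median 52.7) in Grn+/- mice and 45.5 to 57.7 (median 53.3) in mice with both changes. Controls lay low and close together, while 4 of the 6 TDP mice were above every control and 1 was below every control. The transgene effect in Grn+/+ mice was 0.24 (SE 0.0871, edgeR adjusted p = 0.608), and without TDP mouse replicate 2 it was 0.19 (SE 0.0895). Psat1 ran from 80.7 to 94.1 (median 84.6) CPM in controls, 88.0 to 108 (median 93.5) in TDP mice, 86.0 to 114 (median 89.0) in Grn+/- mice and 83.2 to 96.6 (median 94.2) in mice with both changes. Its transgene effect in Grn+/+ mice was 0.14 (SE 0.0646, edgeR adjusted p = 0.623), and that in Grn+/- mice -0.04 (SE 0.0646). Averaged over both Grn genotypes, the changes were 0.11 for Phgdh and 0.05 for Psat1 (adjusted p = 0.685 and 0.807), the latter 0.03 without TDP mouse replicate 5 and 0.08 without Grn+/- mouse replicate 2.

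Oligodendrocyte markers moved in the same comparison. Their 6 genes of 6 lay above 0 in the transgene effect in Grn+/+ mice, with a median of 0.69, and none was called. Their summed level was 1038 to 2593 CPM in controls, 1697 to 3593 in TDP mice, 1132 to 4811 in Grn+/- mice and 1047 to 2722 in mice with both changes, and none was at 0 in any library. Markers of choroid plexus and ependyma lay above 0 for all 6 tested of 7, with a median of 0.77 and a summed 5.67 to 13.1 CPM in controls and 6.36 to 27.5 in TDP mice. The highest of these was replicate 2, without which the TDP mice held 6.36 to 10.9 CPM, the median was 0.41 and 5 of 6 lay above 0; Folr1 and Ccdc153 were at 0 in some libraries. The part of these cells in the Phgdh and Psat1 values was not tested.

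The third integrated stress response gene by p was Trib3, on few reads. Trib3 ran from 0.430 to 0.667 (median 0.548) CPM in controls, 0.398 to 0.961 (median 0.561) in TDP mice, 0.323 to 0.876 (median 0.650) in Grn+/- mice and 0.553 to 0.876 (median 0.766) in mice with both changes. Its average transgene effect was 0.19 (SE 0.173, edgeR adjusted p = 0.819), with an interval of -0.17 to 0.54, and it was -0.17 in mice of 9.44 and 10.07 months alone, where a lone Grn+/- mouse was left and was assumed to vary like the others. It was 0.10 without TDP mouse replicate 2 and 0.11 without Grn+/- mouse replicate 4. Atf4 itself stood at 95.4 to 126 CPM (median 114) with the transgene and 97.8 to 126 CPM (median 113) without it.

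For the unfolded protein response, the 3 genes of smallest p with the transgene were Sel1l, Eif2ak3 and Atf6, all slightly lower. Sel1l ran from 208 to 229 (median 225) CPM in controls, 204 to 229 (median 214) in TDP mice, 200.1 to 231 (median 215) in Grn+/- mice and 192 to 224 (median 205) in mice with both changes. Eif2ak3 ran from 31.6 to 37.0 (median 33.7) CPM in controls, 29.1 to 34.9 (median 33.8) in TDP mice, 31.9 to 33.7 (median 32.9) in Grn+/- mice and 24.2 to 33.6 (median 32.0) in mice with both changes. Atf6 ran from 94.9 to 144 (median 117) CPM in controls, 102 to 129 (median 111) in TDP mice, 101 to 129.96 (median 111) in Grn+/- mice and 86.8 to 117 (median 109.7) in mice with both changes. Ranges overlapped throughout, and the highest Atf6 value was in a control and the lowest in a mouse with both changes. The log2 changes were -0.05 (SE 0.0281, edgeR adjusted p = 0.699) for Sel1l, -0.07 (SE 0.0441, edgeR adjusted p = 0.705) for Eif2ak3 and -0.08 (SE 0.0553, edgeR adjusted p = 0.727) for Atf6. The size of these values varied: Eif2ak3 gave -0.04 without replicate 6 of the mice with both changes and -0.12 with age as a factor, and Atf6 gave -0.05 without replicate 4 of that group and -0.02 with age as a factor. Sel1l gave -0.01 with age as a factor. Neuron markers lay below 0 for 6 of 6 genes in the same comparison (median -0.05), at a summed 9682 to 11260.5 CPM without and 9146 to 10868 CPM with the transgene, and their part in these values was not tested. Of the effectors, Hspa5 gave -0.05, Herpud1 -0.05, Xbp1 0.03 and Hsp90b1 0.01, and none had a p under 0.05.

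With a single Grn copy, 11 of 12 unfolded protein response genes lay below 0, with a median log2 change of -0.04, while 53.5% of all genes lay above 0 at a median of 0.01. Ern1 was the exception, at 0.07. The integrated stress response had 8 of 12 above 0 (median 0.04) and the heat shock genes 6 of 12 (median -0.01). Neuron markers had 4 of 6 below 0 (median -0.03), astrocyte and microglia markers 5 of 5 above 0 each (medians 0.09 and 0.09). Blood markers lay above 0 for 5 of 5 genes (median 0.97), at a summed 11.1 to 54.2 CPM in Grn+/+ and 10.96 to 150.3 CPM in Grn+/- mice, and markers of mural and meningeal cells for 7 of 7 (median 0.17). Immediate early genes lay above 0 for 10 of 11 (median 0.23). None of these markers was called, none was at 0 in every library, and their part in these shifts was not tested.

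Dnajb9, an endoplasmic reticulum co-chaperone of BiP that also restrains IRE1, had the smallest p of the 12. Dnajb9 ran from 39.2 to 45.5 (median 41.4) CPM in controls, 37.9 to 45.2 (median 41.7) in TDP mice, 37.1 to 41.1 (median 38.7) in Grn+/- mice and 37.8 to 42.8 (median 39.2) in mice with both changes. Both groups with a single copy had lower medians than both with 2 copies, and all ranges overlapped. The average Grn effect was -0.09 (SE 0.0309, edgeR adjusted p = 0.926), and it had the same sign without the transgene (-0.10) and with it (-0.08). In mice of 9.44 and 10.07 months alone it was -0.12 (SE 0.0562), again with the lone Grn+/- mouse. Canx and Atf6 came next. Canx ran from 275 to 289.6 (median 284) CPM in controls, 269 to 296 (median 289) in TDP mice, 269 to 289 (median 277) in Grn+/- mice and 256 to 293 (median 275) in mice with both changes. Their Grn effects were -0.04 (SE 0.0231, edgeR adjusted p = 0.926) and -0.09 (SE 0.0553, edgeR adjusted p = 0.926), the latter -0.06 without replicate 4 of the mice with both changes.

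Hsp90aa1, the inducible cytosolic HSP90, led the heat shock genes. Hsp90aa1 ran from 1103 to 1173 (median 1145) CPM in controls, 1053 to 1170.4 (median 1144) in TDP mice, 1029 to 1158 (median 1095) in Grn+/- mice and 985 to 1144 (median 1104) in mice with both changes. The lowest value was in a mouse with both changes, and all groups overlapped. Its average Grn effect was -0.06 (SE 0.0255, edgeR adjusted p = 0.926). Hspd1 and Dnaja1 gave -0.03 and -0.05. In the integrated stress response the 3 genes of smallest p were Trib3, Asns and Chac1, at 0.20, -0.05 and -0.07, with adjusted p-values of 0.938 each. In mice of 9.44 and 10.07 months alone, with the lone Grn+/- mouse, they were 0.44, -0.09 and 0.0003. Asns ran from 101 to 111 (median 106) CPM in controls, 94.1 to 121 (median 101) in TDP mice, 95.6 to 112 (median 102) in Grn+/- mice and 83.1 to 109 (median 102) in mice with both changes. These ranges overlapped, and the lowest Asns value, in a mouse with both changes, stood alone. Without that mouse, replicate 6 of its group, the Asns effect was -0.02.

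**Figure D4:**
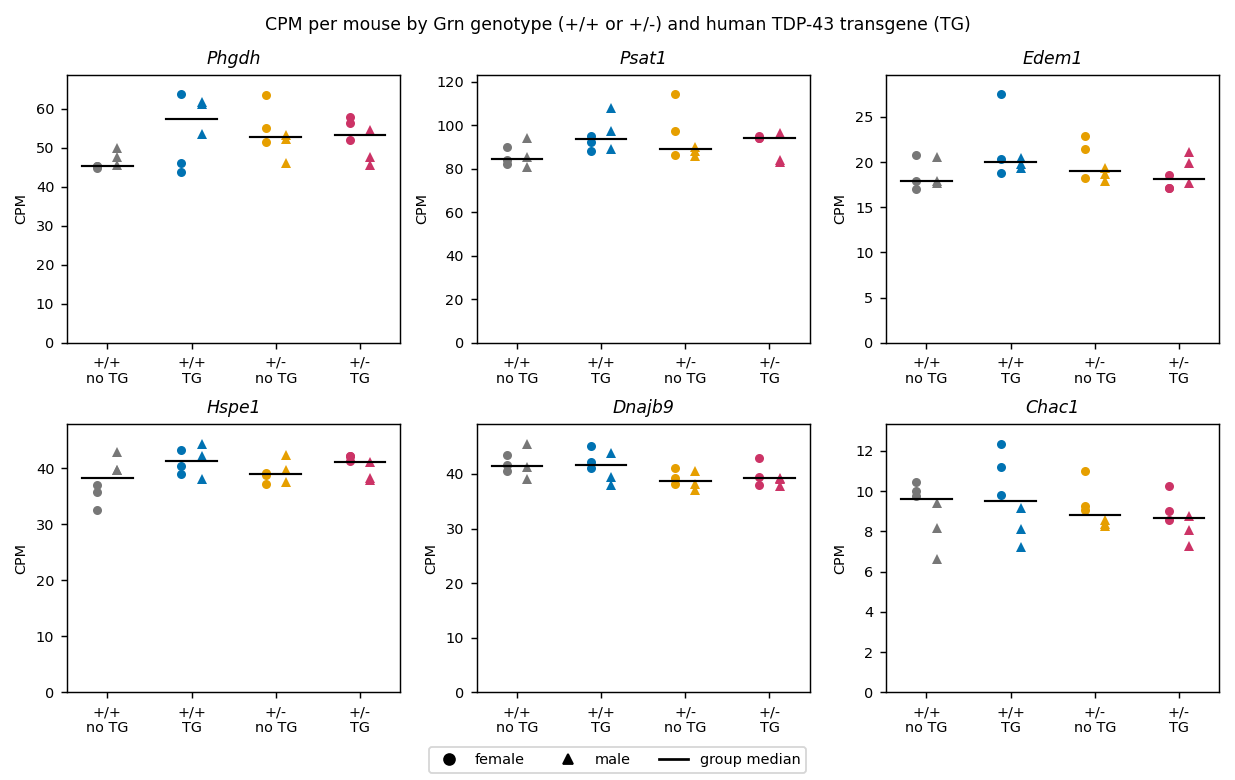
CPM of 6 genes in each mouse by genotype (circles females, triangles males), with the median of each group as a line; the y axes start at 0. The 4 genotypes overlap in every panel, and for Chac1 the females lie above the males in each genotype by median.

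The interaction asks whether the transgene acted differently in Grn+/- and Grn+/+ mice, the question in the title of the series. The medians were -0.04, 0.002 and -0.003 for the integrated stress response, unfolded protein response and heat shock genes, beside 0.003 over all genes. Phgdh gave -0.28 (SE 0.123, edgeR adjusted p = 0.99998): the transgene effect was 0.24 in Grn+/+ and -0.03 in Grn+/- mice. Without TDP mouse replicate 2 it was -0.23 (SE 0.123). Psat1 gave -0.18 (SE 0.0913, edgeR adjusted p = 0.99998), or -0.12 without Grn+/- mouse replicate 2. Chac1 gave -0.15 (SE 0.121, edgeR adjusted p = 0.99998), or -0.10 without control replicate 6, -0.10 without TDP mouse replicate 6 and -0.06 with age as a factor. In mice of 9.44 and 10.07 months alone, where a lone Grn+/- mouse was left, Psat1 gave -0.06 and Chac1 -0.26. The same comparison held 6 of 6 oligodendrocyte markers below 0, at a median of -0.88.

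Edem1, which takes misfolded glycoproteins to degradation, had the next smallest p. Edem1 ran from 17.0 to 20.8 (median 17.9) CPM in controls, 18.8 to 27.5 (median 20.05) in TDP mice, 18.0 to 22.8 (median 19.0) in Grn+/- mice and 17.1 to 21.2 (median 18.1) in mice with both changes. The highest value by far was the TDP mouse of replicate 2. The interaction was -0.26 (SE 0.122, edgeR adjusted p = 0.99998), and without that mouse it was -0.17 (SE 0.1003). Xbp1 gave 0.08, or 0.05 without that mouse, and Eif2ak3 -0.06, or 0.001 without replicate 6 of the mice with both changes. Xbp1 ran from 82.7 to 95.4 (median 86.4) CPM in controls, 77.2 to 103 (median 83.8) in TDP mice, 78.2 to 93.1 (median 85.2) in Grn+/- mice and 79.2 to 94.3 (median 91.3) in mice with both changes. Among heat shock genes Hspe1, Bag3 and Hspd1 had the smallest p-values, with changes of -0.07, -0.15 and -0.02. With age as a factor these were 0.01, -0.29 and 0.005. Bag3 moved both ways: it gave -0.25 without TDP mouse replicate 2 and -0.09 by limma voom. In mice of 9.44 and 10.07 months alone, where a lone Grn+/- mouse was left, Bag3 gave -0.05.

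Mice with both changes, set against controls, had 10 of 12 unfolded protein response genes below 0 (median -0.05), 8 of 12 heat shock genes (median -0.03) and 4 of 12 integrated stress response genes (median 0.08). Over all genes 54.9% lay above 0. The 4 members with an unadjusted p under 0.05 were Sel1l at -0.09, Eif2ak3 at -0.14, Atf6 at -0.18 and Hsp90aa1 at -0.08, with adjusted p-values of 0.471 to 0.515. Blood markers lay above 0 for 5 of 5 genes here (median 1.34; summed 11.1 to 30.8 CPM in controls and 13.2 to 77.9 CPM with both changes), and markers of mural and meningeal cells for 7 of 7 (median 0.36). So did all 6 oligodendrocyte, 5 astrocyte, 5 microglia and 5 endothelial markers (medians 0.18, 0.12, 0.07 and 0.13), while 5 of 6 neuron markers lay below 0 (median -0.09). None was called, and their part in the values of the members was not tested. This comparison shares its mice with those above and adds no separate support.

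The member nearest to a call was Chac1, by sex and not by genotype. Chac1 ran from 6.63 to 10.4 (median 9.61) CPM in controls, 7.22 to 12.3 (median 9.49) in TDP mice, 8.26 to 11.02 (median 8.82) in Grn+/- mice and 7.29 to 10.3 (median 8.67) in mice with both changes. Over all genotypes, females held 8.59 to 12.3 CPM (median 9.92) and males 6.63 to 9.43 CPM (median 8.21). All 12 females lay above the male median, 8 of them above every male, and in 3 of 4 genotypes each of the 3 females lay above each of the 3 males. The sex effect (males minus females) was -0.30 (SE 0.0605, edgeR adjusted p = 0.0732), with an interval of -0.42 to -0.17, or 0.813 times the female level. By DESeq2, which called 0.123% of genes in this comparison, the adjusted p was 0.00220. In mice of 9.44 and 10.07 months alone the value was -0.36 (SE 0.0766), and it was -0.31 without TDP mouse replicate 2. By edgeR the adjusted p was 0.0210 without control replicate 1 and 0.0476 without replicate 3 of the mice with both changes, and it ran from 0.00220 to 0.340 over all alternatives.

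Most of the program lay on the same side of 0. Of the 12 integrated stress response genes, 11 lay below 0, that is lower in males (median -0.06), as were 28 of 34 further genes of that pathway tested (median -0.05), beside 50.7% of all genes above 0. Lower in males were also 8 of 12 unfolded protein response members and 30 of 40 further genes of that pathway (medians -0.02 and -0.02), and 7 of 12 and 21 of 49 heat shock and chaperone genes. Sesn2 held 15.3 to 20.6 CPM (median 18.7) in females and 15.9 to 18.0 CPM (median 16.8) in males. Its sex effect was -0.12 (SE 0.0401, edgeR adjusted p = 0.687). Atf5 gave -0.13, while Ddit4, which glucocorticoids also induce, was the exception at 0.17. In the other programs Dnajb1 was higher in males at 0.17 (interval 0.05 to 0.28) and Atf6 lower at -0.13 (interval -0.25 to -0.02). Oligodendrocyte markers were lower in males for 6 of 6 genes (median -0.30; summed level 1038 to 4811 CPM in females and 1122 to 3586 in males) and immediate early genes higher for 10 of 11 (median 0.26). Markers of choroid plexus and ependyma were lower in males for 4 of 6 (median -0.69; summed 5.53 to 27.5 CPM in females and 5.44 to 10.9 CPM in males). None of these markers was called, and their part in the sex values was not tested.

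TDP-43 is a splicing factor, so the share of a gene's reads on each of its transcripts was also compared. Of the members, 12 had more than 1 transcript above 5% of their gene and could be tested, and none was called by edgeR's likelihood ratio test, where 0.152% of genes were called for the transgene and 0.0381% for the Grn genotype. At an unadjusted p under 0.05 that test gave 0 members for the transgene and 0 for Grn, while limma's test gave 1 (Psat1, adjusted p = 0.184) and 3 (Psat1, Edem1 and Sel1l). Hsp90aa1 divided its reads nearly evenly between 2 transcripts: Hsp90aa1-202 took 50.4 ± 1.72% without and 48.2 ± 4.02% with the transgene (SD, n = 12 each), a difference within the spread. These tests and shares use all 24 libraries. They were not repeated without TDP mouse replicate 2, whose library listed the fewest transcripts. Splicing of Xbp1 by IRE1 was not analysed here.

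The wider pathways were like the members in having no gene called, but not always in direction. Of 34 further integrated stress response genes tested, 40 of the unfolded protein response and 49 chaperone or co-chaperone genes, edgeR called none in any of the 9 comparisons. For the average transgene effect 20, 20 and 28 of them lay above 0, with medians of 0.01, 0.001 and 0.01, and unadjusted p-values under 0.05 numbered 1, 6 and 4. For the average Grn effect 11, 17 and 18 lay above 0, with 3, 2 and 3 under 0.05. With a single Grn copy, integrated stress response members lay mostly above 0 and the further genes of that pathway mostly below it. With the transgene, heat shock members lay mostly below 0 and the further chaperone genes mostly above it.

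The nearest to a call was Hspa4, an HSP110-type chaperone that exchanges nucleotide on HSP70. Hspa4 ran from 258 to 285 (median 266) CPM in controls, 223 to 261 (median 240.3) in TDP mice, 240.04 to 275 (median 249.98) in Grn+/- mice and 215 to 248 (median 239) in mice with both changes. Control and double-change mice did not overlap, as was so for 0.680% of all genes tested. The average transgene effect was -0.13 (SE 0.0270, edgeR adjusted p = 0.0599), with an interval of -0.19 to -0.08. Its adjusted p was 0.00121 by DESeq2 and 0.0443 by edgeR with another library scaling (relative log expression size factors), and by edgeR 0.0468, 0.0447 and 0.0435 without Grn+/- mouse replicate 1, Grn+/- mouse replicate 2 or replicate 2 of the mice with both changes. Over all alternatives it ran from 0.00121 to 1, so the side of the threshold depended on the tool, the scaling, the handling of age (1 with age as a factor) and single libraries. The log2 change with both changes was -0.19 (SE 0.0382, edgeR adjusted p = 0.0565), where the adjusted p ran from 0.000349 to 0.339 over the alternatives. Its close relative among the members, Hsph1, gave -0.06 (interval -0.16 to 0.03).

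Other genes of smallest p with the transgene were the disulfide isomerase Pdia4 and Edem2 of the unfolded protein response, Fkbp5, a co-chaperone of HSP90 that glucocorticoids induce, and the amino acid transporter Slc7a5 and translation factor subunit Eif2b3 of the integrated stress response. Pdia4 held 26.0 to 35.6 CPM (median 30.8) without and 19.1 to 30.6 CPM (median 26.7) with the transgene, a difference of -0.22 (SE 0.0649, edgeR adjusted p = 0.364). Edem2 gave 0.15 (SE 0.0502, edgeR adjusted p = 0.517) and Fkbp5 0.19 (SE 0.0721, edgeR adjusted p = 0.570). Slc7a5 and Eif2b3 gave 0.09 and 0.14, with adjusted p-values of 0.573 and 0.664. With the Grn genotype they were the glycyl-tRNA synthetase gene Gars (-0.07), the transcription factor Cebpb (0.12), Edem3 (-0.07), the ATF6-cleaving protease Mbtps2 (-0.06), the HSP70 co-chaperone St13 (-0.06) and Hspa4 (-0.06), each with an adjusted p of 0.926.

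Some members varied together from mouse to mouse. Pearson's r was computed over the 24 mice for the 66 pairs within each program and for each member against the mean log2 CPM of 10 marker lists, 558 relations in all, a family chosen after the data were seen. Of these, 37 had a Benjamini-Hochberg adjusted permutation p under 0.05, and 29 of them also by Spearman's rho. All values share the scaling of their library, which can tie genes to each other. Among pairs of members 17 passed, all positive: 7 of 66 heat shock pairs, 7 of 66 unfolded protein response pairs and 3 of 66 integrated stress response pairs. The median r of a pair was 0.24, 0.15 and 0.05 in these programs. Over all pairs of the 18239 genes tested, 2.598% had an r at or above 0.585, the lowest among the 17, and the same share was 10.6% of heat shock, 10.6% of unfolded protein response and 4.54% of integrated stress response pairs. The other 20 relations that passed joined a member to a marker list, and 8 of them were negative. The share of all genes tied this closely to a marker list was not computed. These 20 are therefore not shown to set the members apart from other genes. Of the 6 in the heat shock program 5 were negative: Hsf1 with choroid plexus and ependyma (r = -0.70, or -0.51 without TDP mouse replicate 2), Hsph1 with striatal neuron markers (-0.69), Hspa1b with oligodendrocyte markers (-0.64), Hspe1 with neuron markers (-0.60) and Dnaja1 with microglia markers (-0.58). The sixth was Bag3 with endothelial markers (0.59). TDP mouse replicate 2 had the lowest Bag3 and the lowest endothelial marker mean of the 24 mice, and no value without it is given. It also had the lowest Hsph1 (260 CPM), the highest striatal neuron marker mean and the lowest Hspa1b (17.9 CPM). The relations of Hsph1 and Hspa1b to marker lists are likewise given only with it. Of the 10 relations in the integrated stress response 7 were positive, and so were all 4 in the unfolded protein response. Only some of these are named below.

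The tightest pair by Pearson's r was Hspa8 and Hsph1, HSC70 and the HSP110 that recharges it, and by rho it was Atf6 and Sel1l (rho = 0.89). Across the 24 mice they gave r = 0.90 (permutation p = 1e-05, adjusted p = 0.000797) and rho = 0.85 (permutation p = 1e-05), with r = 0.87 without the 2 mice of most extreme Hspa8 and 0.87 to 0.97 within ages and sexes, where ages are the mice of 9.44 and of 10.07 months (9 each) and sexes have 12 mice each. A permutation p of 1e-05 is the smallest that 100000 permutations can give. Dnaja1, their HSP40 partner, gave r = 0.75 (permutation p = 5e-05, adjusted p = 0.00254) and rho = 0.81 (permutation p = 1e-05), with r = 0.72 without the 2 mice of most extreme Hspa8 and 0.75 to 0.80 within ages and sexes. Hspa1b passed with Dnajb1 and with Hspa1a. Hspa1b and the HSP40 gene Dnajb1 gave r = 0.79 (permutation p = 1e-05, adjusted p = 0.000797) and rho = 0.83 (permutation p = 2e-05), with r = 0.78 without the 2 mice of most extreme Hspa1b, 0.85 without TDP mouse replicate 2 and 0.60 to 0.94 within ages and sexes. Hspa1a and Hspa1b, whose reads are partly shared, gave r = 0.77 (permutation p = 1e-05, adjusted p = 0.000797) and rho = 0.64 (permutation p = 0.00095), with r = 0.63 without the 2 mice of most extreme Hspa1a and 0.75 to 0.93 within ages and sexes. The last 3 pairs were looser in some subsets of mice: Hsph1 with Dnaja1 gave r = 0.69 (permutation p = 0.00031, adjusted p = 0.0102; rho = 0.68, permutation p = 0.00045; 0.76 without the 2 extreme mice; 0.62 to 0.79 within ages and sexes). Hsp90aa1 with Dnaja1 gave r = 0.69 (permutation p = 0.00024, adjusted p = 0.00893; rho = 0.69, permutation p = 0.00028; 0.57 without the 2 extreme mice; 0.33 to 0.90 within ages and sexes). Hsf1 with Bag3 gave r = 0.62 (permutation p = 0.00145, adjusted p = 0.02997; rho = 0.61, permutation p = 0.00182; 0.49 without the 2 extreme mice; 0.45 to 0.76 within ages and sexes), and r = 0.43 without TDP mouse replicate 2.

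Both Hspa1 genes lie on chromosome 17, and their promoters are nearly copies of each other. The 250 bases before the start sites (RefSeq, GRCm38.p6, 5′ to 3′ on the gene's strand) are equal at 247 of 250 positions, and capitals mark the 3 that differ.
Hspa1a, chr17:34972157-34972406, minus strand: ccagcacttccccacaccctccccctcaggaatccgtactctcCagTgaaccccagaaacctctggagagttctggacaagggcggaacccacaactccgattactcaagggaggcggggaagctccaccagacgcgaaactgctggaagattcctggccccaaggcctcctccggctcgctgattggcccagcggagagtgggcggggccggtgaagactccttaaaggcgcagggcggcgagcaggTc
Hspa1b, chr17:34959239-34959488, minus strand: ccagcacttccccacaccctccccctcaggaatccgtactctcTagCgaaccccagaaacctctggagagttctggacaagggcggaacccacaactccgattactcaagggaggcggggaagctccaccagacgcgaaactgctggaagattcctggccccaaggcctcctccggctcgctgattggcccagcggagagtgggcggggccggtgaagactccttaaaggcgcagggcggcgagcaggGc
RefSeq promoters were found for 31 of the 36 members and not for Atf6, Hspa8, Hsp90aa1, Hsp90ab1 and Hsf1. A heat shock element of 3 alternating units, GAANNTTCNNGAA on either strand, occurred in 0.466% of the 32851 promoters and, among members, in those of Hspd1 and Hspe1. A looser 2-unit form, TTCNNGAA, which the 3-unit form contains, occurred in 7.17% of promoters and also in Hsph1, Atf5 and Eif2ak3. The other 2-unit order, GAANNTTC, was not searched for, and it can be read in both printed Hspa1 sequences. Matches were counted only for these exact letters within the 250 bases before a start. Hspd1 and Hspe1 are read in opposite directions from 1 stretch of chromosome 1, and RefSeq gives Hspd1 2 start sites. Before the start nearer to Hspe1, 215 of the 250 bases are the same DNA as before Hspe1, and before the other start none are. The stretch is shown from the Hspe1 side because it lies before a start of both chaperonin genes, with the elements in capitals.
Hspe1, chr1:55087898-55088147, plus strand: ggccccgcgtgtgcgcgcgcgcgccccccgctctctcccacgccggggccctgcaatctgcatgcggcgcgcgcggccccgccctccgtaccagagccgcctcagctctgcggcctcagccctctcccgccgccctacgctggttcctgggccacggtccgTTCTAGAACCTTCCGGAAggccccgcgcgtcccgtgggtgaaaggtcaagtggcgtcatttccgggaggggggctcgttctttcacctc
The levels of Hspd1 and Hspe1 gave r = 0.50 over the 24 mice (permutation p = 0.0117, adjusted p = 0.0957), which did not pass the threshold, and rho = 0.45.

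In the unfolded protein response, several but not all pairs of chaperones passed, and Canx did so with Hsp90b1 only. Hspa5 and Calr gave r = 0.81 (permutation p = 1e-05, adjusted p = 0.000797) and rho = 0.80 (permutation p = 1e-05), with r = 0.76 without the 2 mice of most extreme Hspa5 and 0.80 to 0.91 within ages and sexes. Hsp90b1 and Canx gave r = 0.75 (permutation p = 3e-05, adjusted p = 0.00209) and rho = 0.71 (permutation p = 0.00017), with r = 0.74 without the 2 mice of most extreme Hsp90b1 and 0.70 to 0.90 within ages and sexes. Xbp1, whose product is known to drive such genes, and Hspa5 gave r = 0.75 (permutation p = 5e-05, adjusted p = 0.00254) and rho = 0.76 (permutation p = 6e-05), with r = 0.67 without the 2 mice of most extreme Xbp1 and 0.68 to 0.83 within ages and sexes. The other links among them had lower r. Hsp90b1 with Calr gave r = 0.66 (permutation p = 0.00049, adjusted p = 0.0144; rho = 0.62, permutation p = 0.00156; 0.56 without the 2 extreme mice; 0.43 to 0.85 within ages and sexes). Xbp1 with Calr gave r = 0.64 (permutation p = 0.00074, adjusted p = 0.0197; rho = 0.62, permutation p = 0.00165; 0.62 without the 2 extreme mice; 0.49 to 0.84 within ages and sexes). Hspa5 with Hsp90b1 gave r = 0.59 (permutation p = 0.00285, adjusted p = 0.0454; rho = 0.55, permutation p = 0.00652; 0.45 without the 2 extreme mice; 0.59 to 0.73 within ages and sexes), which did not pass by rho. The remaining pair joined the sensor Atf6 to Sel1l: they gave r = 0.82 (permutation p = 1e-05, adjusted p = 0.000797) and rho = 0.89 (permutation p = 1e-05), with r = 0.79 without the 2 mice of most extreme Atf6 and 0.77 to 0.95 within ages and sexes. Both also followed the mean of the 6 neuron markers, Atf6 at r = 0.71 (permutation p = 6e-05, adjusted p = 0.00279; rho = 0.69, permutation p = 0.0003; 0.63 without the 2 extreme mice; 0.54 to 0.83 within ages and sexes) and Sel1l at r = 0.67 (permutation p = 0.00031, adjusted p = 0.0102; rho = 0.69, permutation p = 0.00037; 0.63 without the 2 extreme mice; 0.39 to 0.82 within ages and sexes).

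**Figure D5:**
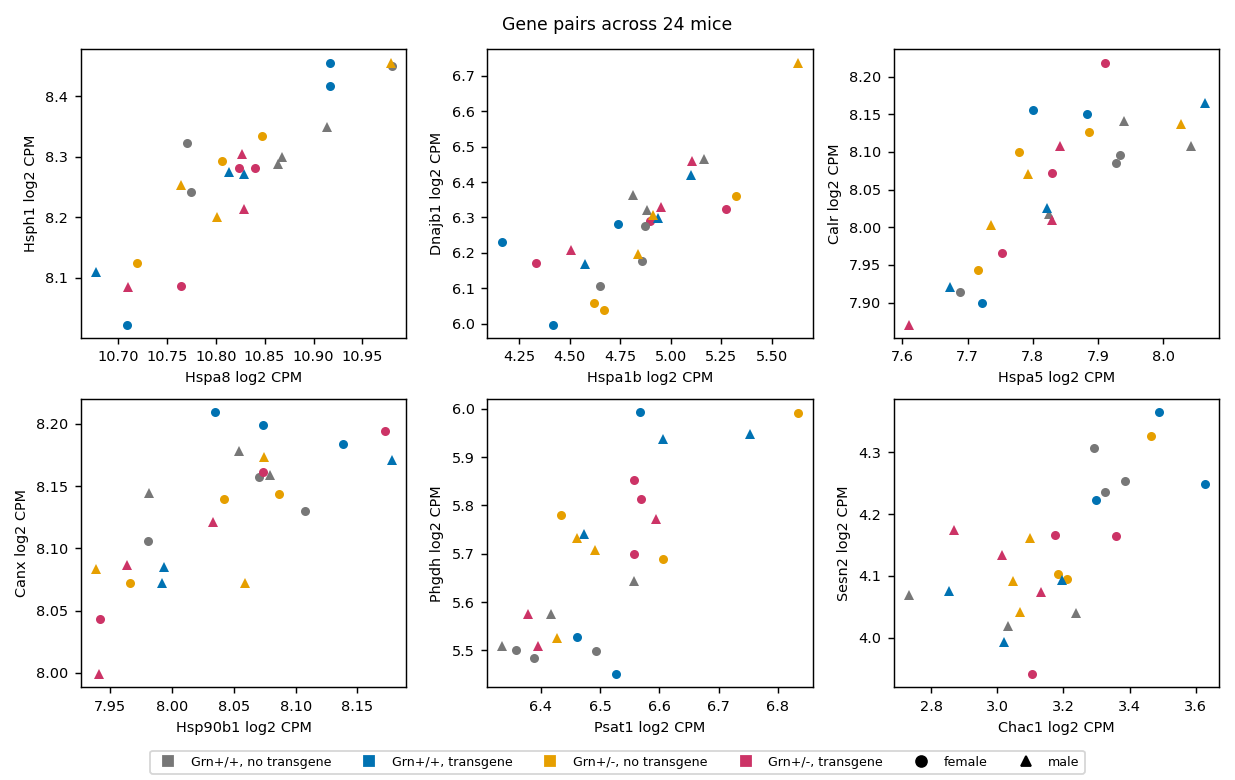
Log2 CPM of 6 gene pairs in each of 24 mice, coloured by genotype, with circles for females and triangles for males. Colours are mixed along each cloud, as with Hspa8 and Hsph1 (r = 0.90), and for Chac1 and Sesn2 most females lie to the upper right of the males.

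The 4 chaperone genes share a sequence feature. The endoplasmic reticulum stress response element, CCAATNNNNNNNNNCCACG on either strand, is known as the site where NF-Y and ATF6 or XBP1 bind, and it occurred in 37 of the 32851 RefSeq promoters (0.113%). Among members it occurred in 4 of the 11 unfolded protein response genes that had a promoter, Hspa5, Calr, Hsp90b1 and Canx, and in none of the other programs. They are shown because each was in at least 1 of the pairs that passed, each as the 250 bases before the start with the element in capitals. A match describes letters and shows no binding.
Hspa5, chr2:34771840-34772089, plus strand: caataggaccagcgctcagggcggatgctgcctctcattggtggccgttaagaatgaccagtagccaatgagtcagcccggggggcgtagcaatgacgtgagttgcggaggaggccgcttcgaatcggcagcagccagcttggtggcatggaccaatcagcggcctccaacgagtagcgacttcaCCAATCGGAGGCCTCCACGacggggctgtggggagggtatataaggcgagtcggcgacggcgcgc
Calr, chr8:84846932-84847181, minus strand: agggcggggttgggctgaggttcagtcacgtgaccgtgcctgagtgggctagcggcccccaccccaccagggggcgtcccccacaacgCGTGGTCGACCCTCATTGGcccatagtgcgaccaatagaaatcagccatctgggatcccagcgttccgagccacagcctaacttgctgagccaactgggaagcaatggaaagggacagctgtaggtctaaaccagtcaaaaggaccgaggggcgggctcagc
Hsp90b1, chr10:86705445-86705694, minus strand: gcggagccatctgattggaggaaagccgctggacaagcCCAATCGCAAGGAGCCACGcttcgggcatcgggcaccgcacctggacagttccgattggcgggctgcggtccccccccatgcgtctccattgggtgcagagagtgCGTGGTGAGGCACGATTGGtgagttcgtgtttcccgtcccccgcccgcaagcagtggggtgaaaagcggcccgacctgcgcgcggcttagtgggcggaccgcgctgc
Canx, chr11:50325674-50325923, minus strand: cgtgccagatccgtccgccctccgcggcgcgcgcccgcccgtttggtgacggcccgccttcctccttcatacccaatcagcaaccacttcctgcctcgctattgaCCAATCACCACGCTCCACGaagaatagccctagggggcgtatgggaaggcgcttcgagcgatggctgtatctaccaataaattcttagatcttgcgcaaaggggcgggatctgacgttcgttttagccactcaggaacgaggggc
Hsp90b1 holds 2 copies, on opposite strands, and in Calr the element is on the strand opposite to the gene.

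In the integrated stress response, Psat1 and Phgdh, enzymes of consecutive steps of serine synthesis, gave r = 0.76 (permutation p = 1e-05, adjusted p = 0.000797) and rho = 0.69 (permutation p = 0.0004), with r = 0.66 without the 2 mice of most extreme Psat1 and 0.69 to 0.89 within ages and sexes. Psat1 followed the oligodendrocyte markers more closely, at r = 0.83 (permutation p = 1e-05, adjusted p = 0.000797) and rho = 0.79 (permutation p = 2e-05), with r = 0.74 without the 2 mice of most extreme Psat1 and 0.64 to 0.95 within ages and sexes. Phgdh with these markers gave r = 0.60 (permutation p = 0.00232, adjusted p = 0.0392; rho = 0.48, permutation p = 0.0179; 0.43 without the 2 extreme mice; 0.27 to 0.89 within ages and sexes). Ppp1r15a followed the immediate early genes, at r = 0.73 (permutation p = 4e-05, adjusted p = 0.00248) and rho = 0.73 (permutation p = 0.0001), with r = 0.70 without the 2 mice of most extreme Ppp1r15a and 0.62 to 0.88 within ages and sexes. Atf4 and Atf5 gave r = 0.60 (permutation p = 0.00217, adjusted p = 0.0392; rho = 0.60, permutation p = 0.00250; 0.54 without the 2 extreme mice; 0.38 to 0.74 within ages and sexes). Chac1 and Sesn2, the other pair that passed, fell into clusters by sex, so values are given within a sex only: r = 0.75 in 12 females and -0.16 in 12 males.

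The amino acid response element TGATGNAA, a letter pattern within sites that ATF4 and its partners bind, occurred on either strand in 3.45% of promoters. Members with it were Asns, Atf3 and Chac1 of the integrated stress response and Herpud1 of the unfolded protein response. Those of Chac1, the member with the smallest p for sex, and of Asns, a standard ATF4 target with a sex effect of -0.02 (interval -0.11 to 0.06), are shown with the pattern in capitals.
Chac1, chr2:119350992-119351241, plus strand: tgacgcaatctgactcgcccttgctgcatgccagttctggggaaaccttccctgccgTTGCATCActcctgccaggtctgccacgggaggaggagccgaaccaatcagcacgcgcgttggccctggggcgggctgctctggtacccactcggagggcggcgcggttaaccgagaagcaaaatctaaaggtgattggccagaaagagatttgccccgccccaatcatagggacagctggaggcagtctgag
Asns, chr6:7693210-7693459, minus strand: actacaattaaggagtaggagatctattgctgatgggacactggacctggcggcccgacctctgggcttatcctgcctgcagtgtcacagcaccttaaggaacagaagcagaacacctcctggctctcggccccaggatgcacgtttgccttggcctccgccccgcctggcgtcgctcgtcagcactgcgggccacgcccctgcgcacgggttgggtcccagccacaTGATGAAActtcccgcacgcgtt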

How the data were processed

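RNA was measured by sequencing in frontal cortex of 24 mice, 1 library each. The deposited files give, per the file headers, an expected count (NumReads), a TPM value, and a length and effective length for each of 149444 transcripts. Per the submitters' processing notes, STAR, SAMtools, Salmon and DESeq2 were used, and versions, genome build and annotation were not stated. The library protocol in the labels describes both directional and non-directional steps, so it is not known whether strand was used, and genes that overlap may share reads.

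The expected counts deposited by the authors were added up over the transcripts of a gene, then rounded. Of the mouse transcripts, 92.4% could be placed in a gene, through the reference tables, and the human TARDBP transcript was kept out of the tests. The TPM values deposited by the authors were summed per gene and used for levels between genes. CPM uses library sizes scaled by TMM. Differences were tested with edgeR 4.0.16 (quasi-likelihood, groups and sex in the model, filterByExpr, all 24 libraries, Benjamini-Hochberg adjustment over 18239 genes). R 4.3.3, DESeq2 1.42.0 and limma 3.58.1 gave alternatives, and SciPy 1.17.1 and numpy 2.4.6 the permutations (100000). Transcript shares were tested in edgeR for genes with at least 2 transcripts above 5% of the gene. The fits were tested on simulated counts with known changes. Depth was 61445842 to 100859149 estimated reads, and p-values measure the spread between mice. Counts from reads without molecular identifiers are not independent molecules.

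The 36 genes and all other gene lists were chosen with earlier results of these data known. Values by group are given for members called in any comparison and, in each program, the 3 members of smallest p in the average transgene, average Grn and interaction comparisons, and for the other pathway genes the 2 of smallest p in each list for the average effects. Atf4, Sesn2 and other members named beyond that were picked after their values were seen. Alternatives changed the scaling, test, filter, covariates, ages, gene summary and libraries.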

Additional observations from a re-analysis of the deposited data

Results flagged for a closer look

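In each of 4 groups of 6 mice, the highest or lowest CPM of each of the 36 genes was compared with its nearest neighbour. In 8 of 144 such groups the gap to that neighbour, divided by the range of the group, exceeded Dixon's 95% critical value for 6 samples, and chance alone gives about 1 in 20.

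Among integrated stress response genes, Atf3 stood at 1.28 CPM in Grn+/- mouse replicate 1, where the next highest was 0.753, Chac1 at 11.02 CPM in Grn+/- mouse replicate 6 (next 9.24), and Ppp1r15a at 16.1 CPM in control replicate 2 (next 12.8). Asns stood low, at 83.1 CPM in replicate 6 of the mice with both changes (next 99.8). Among unfolded protein response genes, Edem1 was at 27.5 CPM in TDP mouse replicate 2 (next 20.4), the library that listed the fewest transcripts, and Dnajb9 at 42.8 CPM in replicate 5 of the mice with both changes (next 39.4). Among heat shock genes, Hsf1 was at 35.3 CPM in replicate 1 of the mice with both changes (next 28.7) and Bag3 low, at 4.91 CPM in Grn+/- mouse replicate 5 (next 6.83). No mouse held more than 1 of the 8 values, and what set them apart was not tested.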

How the results depend on the processing

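In the 8 genotype comparisons no member was called under any of the scalings, tools, filters, covariates, age restrictions or gene summaries tried, nor without any 1 library. Counts over all genes moved, and the cause was not tested. DESeq2 called 27 genes for the transgene in Grn+/+ mice (edgeR 6), 9 in Grn+/- mice (edgeR 4), 6 for Grn without the transgene (2), 5 with it (1), 86 with both changes (14), 3 in the interaction (0), 61 for the average transgene effect (20), 9 for the average Grn effect (4) and 22 for sex (13), among them 1 member, Chac1. With age as a factor the counts were 0, 0, 0 and 3 for the transgene in Grn+/- mice, Grn without and with the transgene, and both changes, and 2 and 1 for the average transgene and Grn effects. With linear age they were 2 for the transgene in Grn+/- mice and 0 for Grn without it. In mice of 9.44 and 10.07 months alone, with a lone Grn+/- mouse that was assumed to vary like the other groups, they were 1 and 2 for the transgene in Grn+/+ and Grn+/- mice, 0 for Grn with it, 1 with both changes, 2 in the interaction and 3 for the average transgene effect. Fitting only the 2 groups compared gave 1, 1, 0, 0 and 2 for the first 5 comparisons. With no filter they were 2 for the transgene in Grn+/- mice, 0 for Grn with it and 9 with both changes, and with length-scaled counts 2, 0 and 7.

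Leaving out each library in turn gave 4 to 7 genes for the transgene in Grn+/+ mice, 2 to 4 in Grn+/- mice, 0 to 3 for Grn without and 1 to 2 with the transgene, 4 to 16 with both changes, 14 to 22 and 4 to 6 for the average transgene and Grn effects, and 12 to 16 for sex. The count moved by more than 1.5 times without 20 of the 24 libraries for Grn without the transgene (0 or 1 genes), 11 with both changes (4 to 9 genes) and 10 for the transgene in Grn+/- mice (2 genes). For Grn with the transgene it did so without TDP mouse replicate 2 or Grn+/- mouse replicate 3 (2 genes each). For sex 0 to 1 members were called: Chac1 had an adjusted p of 0.0210 without control replicate 1 and 0.0476 without replicate 3 of the mice with both changes. Program medians changed sign in 19 of 216 such refits and in 6 of 81 other settings, all being near 0. The unfolded protein response interaction median, 0.002 in the report, was 0.0550 with age as a factor and 0.0758 in the restricted ages. The members' values moved by more than 1.5 times or changed sign in 36 of 672 cases with 1 library left out and 35 of 251 other settings. With Hspa4 counted too, the sign changed in 1 of 720 and 7 of 270 cases, among them Trib3 with the transgene, which ran from -0.17 to 0.24 over the settings. For transcript shares, edgeR's quasi-likelihood test called 4 and limma's 35 genes for the transgene, and the quasi-likelihood test 1 for Grn, with 0 members in each. No paired analysis was possible because replicate numbers follow accession order and pair no mice. Depth limits Atf3 and Trib3, with 20 to 97 reads per library.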
